A study of Homo sapiens with 4 samples.

Results

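The exons described here are skipped exons of 31 nt or more and shorter than 500 nt whose introns on both sides are at least 10000 nt long. A skipped exon, also called a cassette exon, is one that the spliced RNA either keeps or leaves out. An exon counted as a member when it had at least 10 informative reads in each line, that is, reads that support only inclusion or only exclusion of the exon, and each exon entered once, through the event with most such reads. These criteria gave 1379 exons out of 20399 that met the same length and read criteria, which left 19020 other exons for comparison. The intron lengths are the gaps between the exons of each event, and they alone chose the members. Neither the inclusion level nor its difference between the lines was used.

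MDA-MB-231 is an established cell line from a human breast cancer that lacks hormone receptors and HER2 amplification. The study set these parental cells against MDA-LM2, derived from them and strongly metastatic to lung. The untreated cells of both lines were grown in the same medium, and total RNA was made into libraries with the ScriptSeq kit. The labels list 4 samples, 2 of the parental line and 2 of MDA-LM2 (LM2 below), and do not say whether the samples of a line were separate cultures. The splicing results come as 1 table for each line that names no replicate, plus the authors' comparison of both. For that reason no value below has a spread between samples, and no p-value can be given for a difference between the lines.

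The splicing machinery usually recognises an exon as a unit: factors bound at its left and right splice sites contact each other across the short exon, and enhancer proteins bound within the exon help. Short introns can instead be recognised across the intron. An exon far from both neighbours has to be found by the first route, and its introns take long to transcribe and are often removed in several steps. Long introns are common near the start of genes, where they hold regulatory elements, and in large genes for adhesion, signalling and transcription factors.

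Example exons are shown first, as the strand of the RNA with T for U, from the transcripts of GENCODE release 29 on hg38. The capitals mark the first base and the last 3 bases of each exon, the exonic side of its splice sites. PARD3 (chr10:34284135-34284245, minus strand) and BTRC (chr10:101430345-101430452, plus strand) are shown because the read-based and the deposited level differed in the same direction. The difference of BTRC did not meet the rule for a call given below. RAB10 (chr2:26109768-26109906, plus strand) and HDAC1 (chr1:32302621-32302733, plus strand) are shown because their levels differed while skipping reads were almost absent. AGAP1 (chr2:235930765-235930923, plus strand) and ANO6 (chr12:45270462-45270524, plus strand) are shown as alternative exons with near-equal levels in both lines.
PARD3: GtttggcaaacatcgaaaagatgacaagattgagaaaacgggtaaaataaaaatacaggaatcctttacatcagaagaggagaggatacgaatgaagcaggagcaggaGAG
BTRC: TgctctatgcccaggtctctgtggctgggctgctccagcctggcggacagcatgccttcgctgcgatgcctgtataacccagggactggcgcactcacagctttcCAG
RAB10: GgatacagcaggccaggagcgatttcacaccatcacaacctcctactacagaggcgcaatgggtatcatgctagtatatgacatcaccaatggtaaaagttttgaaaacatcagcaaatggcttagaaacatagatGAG
HDAC1: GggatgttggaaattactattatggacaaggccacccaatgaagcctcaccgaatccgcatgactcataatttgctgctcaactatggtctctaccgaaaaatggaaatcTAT
AGAP1: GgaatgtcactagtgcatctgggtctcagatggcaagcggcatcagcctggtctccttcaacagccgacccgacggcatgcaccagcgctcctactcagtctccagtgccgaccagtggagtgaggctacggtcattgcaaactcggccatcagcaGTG
ANO6: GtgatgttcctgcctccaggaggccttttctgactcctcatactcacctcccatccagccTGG
The exon of BTRC ends in CAG, those of PARD3 and RAB10 in GAG, and those of HDAC1, AGAP1 and ANO6 in TAT, GTG and TGG. The PARD3, BTRC, AGAP1 and ANO6 exons are whole numbers of codons long, so that leaving them out keeps the reading frame, and the RAB10 and HDAC1 exons are not.

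As a group, the exons between long introns were included to much the same degree as other exons. The inclusion level is the authors' estimate of the fraction of a gene's transcripts that keep the exon; levels and their intervals are those of the authors' deposited tables throughout, and in a pair of values that names no line LM2 comes first. The median over the 1379 exons was 0.78 in LM2 and 0.73 in the parental line, against 0.77 and 0.76 over the 19020 other exons. The quartiles were 0.13 and 0.94 in each line for the members, and 0.10 and 0.95 in LM2 for the others. A level over 0.9 in both lines was found in 397 members (28.8%; 31.6% of the others), and a level under 0.1 in both in 289 (21.0%; 22.8% of the others). The difference in the authors' deposited table, LM2 minus parental, had a median of 0 and quartiles of -0.02 and 0.03. It was positive in 605 members (43.9%; 39.7% of the others), negative in 540 (39.2%; 40.2%) and 0 in 234 (17.0%; 20.1%).

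**Figure D1:**
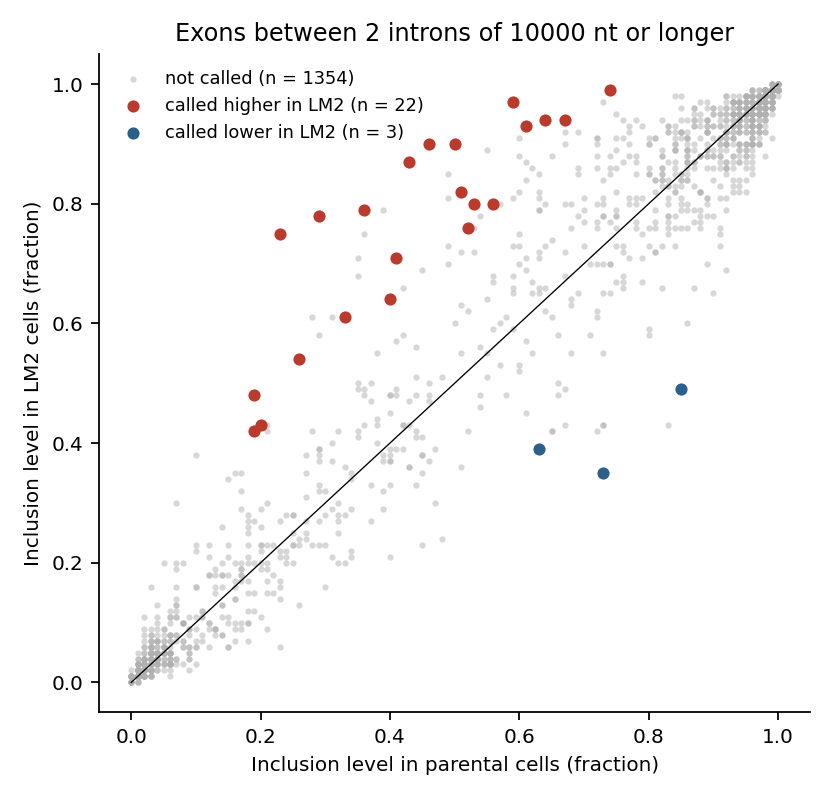
Deposited inclusion level (fraction) of the exons between long introns in the parental line (x axis) and LM2 (y axis), 1 point per exon, with the exons called higher or lower in LM2 in colour. Most of the 1379 points lie near the diagonal, and the 22 exons called higher in LM2 outnumber the 3 called lower.

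An exon was called different where the authors' Bayes factor was at least 10 and the levels differed by at least 0.2. Over all 20399 exons 0.784% were called higher in LM2, 0.255% lower and 1.04% either way. Among the exons between long introns 22 were called higher, or 1.60% (95% exact Clopper-Pearson interval 1.00 to 2.41), and 3 lower, or 0.218% (0.0449 to 0.634). The other exons had 138 called higher (0.726%) and 49 lower (0.258%). These intervals cover counting error only and treat exons as independent, which exons of 1 gene are not. Thus the share called higher lay above that of the other exons, and the share called lower did not lie outside it.

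Above 10000 nt the share called was not larger for longer introns. Grouped by the shorter of the flanking introns, 0.911% of exons were called with under 1000 nt, 1.01% from 1000 nt, 1.14% from 3000 nt, 2.05% from 10000 nt, 1.36% from 20000 nt and 1.64% from 50000 nt. The last group is 61 exons with 1 call. Both gaps were annotated introns in 1282 members (93.0%), against 95.5% of the other exons. Even so, in 1092 members (79.2%) at least 1 gap held another annotated exon of the gene, against 41.6% of the other exons. Among the 287 members with no such exon, 3 were called (1.05%), those of HDAC1, RAB10 and ASAP1. With 3 calls this share cannot be told apart from the 1.81% of all members or the 1.04% of all exons.

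**Figure D2:**
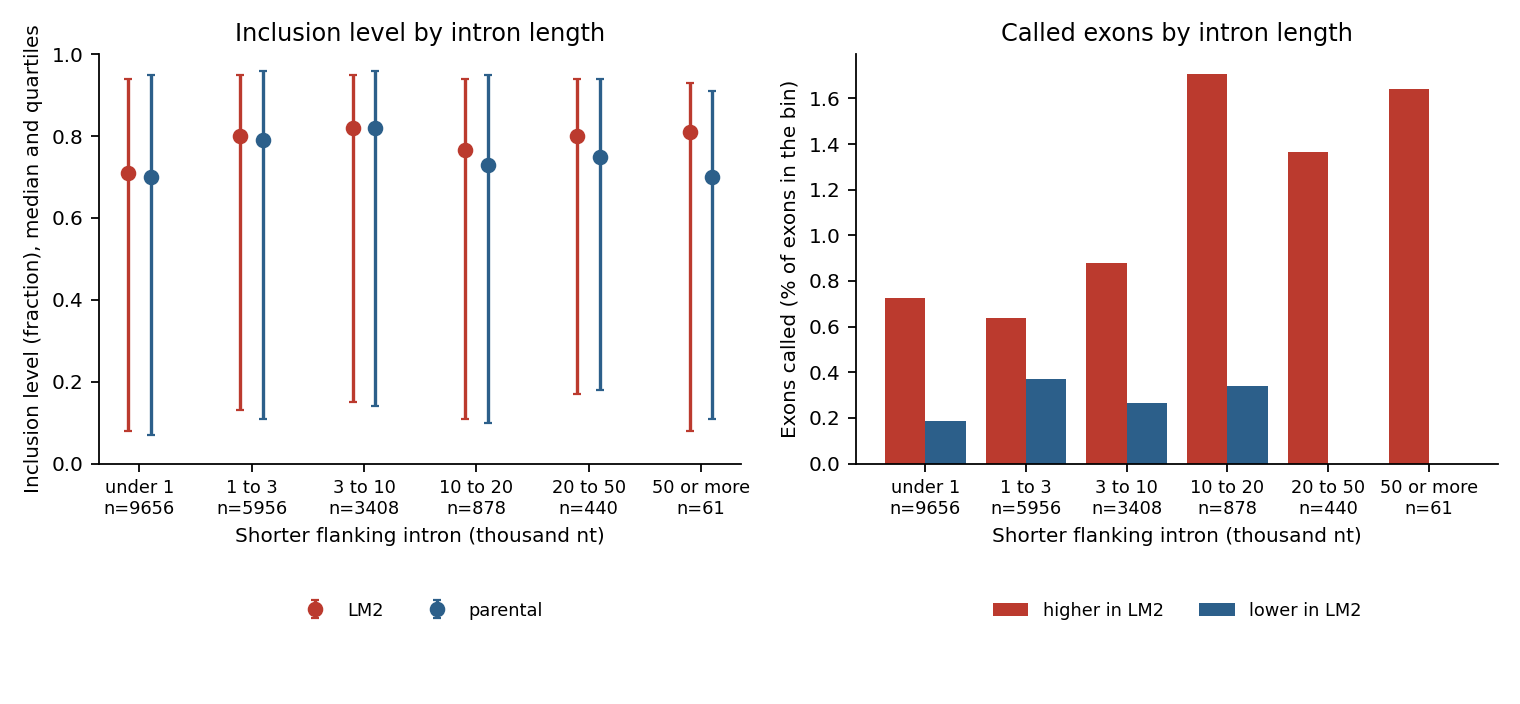
Left, median (points) and quartiles (bars) of the deposited inclusion level in each line for exons grouped by the shorter flanking intron; right, percent of the exons in each group called higher or lower in LM2. The medians stay between 0.70 and 0.82 in all 6 groups, and called exons are most frequent, 2.05% in both directions together, from 10000 to 20000 nt.

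The same question was put to the reads alone. A read-based level was formed for each line with inclusion reads divided by 2, for the junctions on both sides of an included exon. Inclusion reads can also lie within the exon, so this form can overstate the level of long exons. For the 477 nt exon of KLHL5 it gave 0.621 and 0.635. A level per exon and junction position, assuming reads of 50 nt, gave 0.234 and 0.244. Fisher's exact test compared inclusion and exclusion reads between the 2 libraries. Called at an adjusted p of 0.05 (Benjamini-Hochberg over all 20399 exons) with a read-based difference of at least 0.2, 0.123% of all exons passed. None of the 1379 members did, which allows up to 0.267% by the exact interval for each direction, and 61 of them (4.42%) had a p under 0.05 before adjustment, against 4.94% of the others. With no minimum difference 0.554% of all exons and 4 members passed. This test compares the pooled libraries, not the lines.

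Skipping reads were few for most called exons. Of the 22 exons called higher, 18 had fewer than 10 exclusion reads over both libraries and 4 had none, and in 15 the read-based level was over 0.9 in both lines. The read-based difference went with the call in 14, against it in 4 and was 0 in 4. In all 22 there were more inclusion reads per shared read in LM2, where a shared read is one that fits the transcript with and without the exon. The median ratio was 1.00 on the log2 scale, against 0.154 over all members and 0.0721 over the other exons. The calls were chosen by a deposited level made from these same reads, so this is no separate support for them. Informative reads of the event, scaled to the total of each file, were more numerous in LM2 in 19 of the 22, against 43.4% of all members. The 3 exons called lower had fewer inclusion reads per shared read in LM2 in each case. The part of shared reads in the deposited level was not tested.

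The calls were counted again by the number of skipping reads. Of the 598 members with at least 10 exclusion reads, 5 were called (0.836%), 4 of them higher, against 0.881% of the 8176 other exons with as many. Among the 138 other exons called higher, 46 had at least 10 exclusion reads, so few skipping reads were common among calls outside the members too. Of the 379 members with 1 to 9 exclusion reads, 15 were called (3.96%; 2.23 to 6.44), 14 of them higher, against 61 of 4996 others (1.22%; 0.935 to 1.57). Across these 598 exons the deposited and the read-based difference had a Spearman correlation of 0.78. Of the 402 members with no exclusion read, for which the read-based level is 1 in both lines, 5 were called as well (1.24%, against 0.923% of the 5848 others), and their deposited difference had a Spearman correlation of 0.61 with the log2 ratio of inclusion reads per shared read. Both correlations are across exons that share 2 libraries, and the deposited level is made from the same reads.

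**Figure D3:**
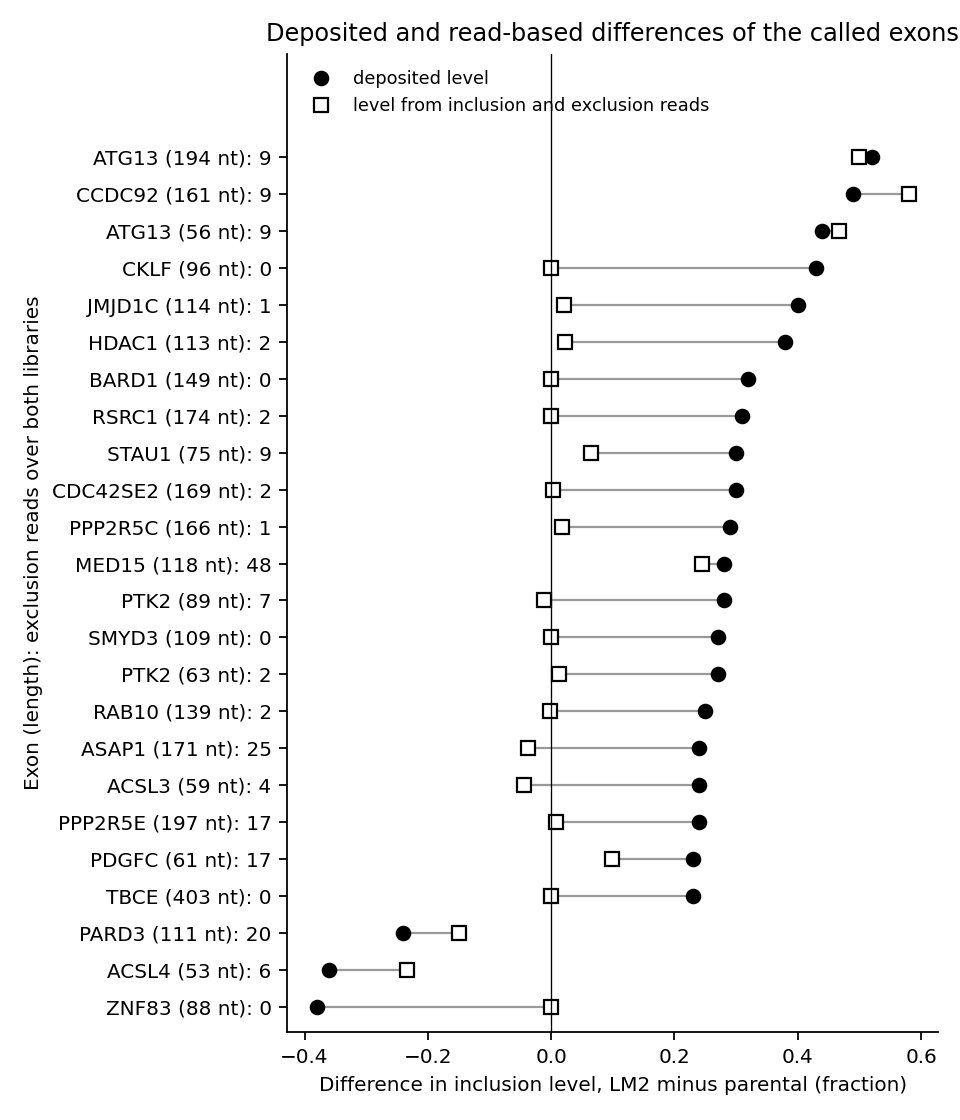
Difference in inclusion level (x axis, fraction, LM2 minus parental) of the called exons named in the text from the deposited level (filled circles) and from inclusion and exclusion reads alone (open squares), with the exclusion reads over both libraries after each name. The squares of ATG13, CCDC92 and MED15 lie close to the circles, and those of ACSL3, ASAP1, RAB10 and the 89 nt exon of PTK2 lie below 0.

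MED15 was the called exon with most skipping reads. MED15 is a subunit of Mediator, the complex that links transcription factors to RNA polymerase II. Its exon of 118 nt lies between introns of 11131 and 18121 nt and is annotated as coding, as exon 2 of a transcript with 7 exons. The level was 0.54 in LM2 (deposited interval 0.43 to 0.64; the files do not state the probability it covers) and 0.26 in the parental line (0.16 to 0.37). Inclusion and exclusion reads numbered 71 and 27 in LM2, and 20 and 21 in the parental line. The read-based levels were 0.568 and 0.323, and the odds ratio was 2.74 (95% interval 1.21 to 6.29), with a Fisher's exact p of 0.011 that became 0.52 on adjustment. Informative reads were also 2.80 times as many in LM2 after scaling (1.93 to 4.14).

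The other exons called higher with a read-based difference of at least 0.1 rested on fewer than 10 skipping reads each. ATG13, part of the kinase complex that starts autophagy, gave 2 of the 22 calls through overlapping exons that end at the same base and use the same skipping junction. Its exon of 56 nt (chromosome 11, 46630045 to 46630100), in the 5′ UTR, had a level of 0.90 in LM2 (0.73 to 0.99) and 0.46 in the parental line (0.27 to 0.70). There were 28 inclusion reads and 1 exclusion read in LM2 against 14 and 8. Fisher's exact p was 0.0032, adjusted 0.27. The longer form, of 194 nt, had levels of 0.75 and 0.23, with a Fisher's exact p of 0.0026, adjusted 0.25. CCDC92, a coiled-coil protein, had levels of 0.78 and 0.29 for a 5′ UTR exon of 161 nt, from 9 inclusion reads and 1 exclusion read in LM2 against 5 and 8.

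In HDAC1, JMJD1C, BARD1 and SMYD3 the exon called higher was nearly always included by the reads. HDAC1 is a histone deacetylase. The level of its second exon (113 nt, introns of 10402 and 13931 nt) was 0.97 in LM2 (0.93 to 1.00) and 0.59 in the parental line (0.50 to 0.70). Exclusion reads numbered 0 in LM2 and 2 in the parental line, beside 392 and 177 inclusion reads, and inclusion reads per 100 shared reads were 78.2 and 39.2. JMJD1C, a JmjC-domain protein of chromatin, had levels of 0.90 and 0.50 for its exon of 114 nt, whose upstream gap is 115553 nt, with 0 and 1 exclusion reads. BARD1, the partner of BRCA1 in DNA repair, had 0.93 and 0.61 with no exclusion read in either library. SMYD3, a lysine methyltransferase, had 0.80 and 0.53, also with none.

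RAB10 had most reads among the called exons. RAB10 is a small GTPase of vesicle transport to the plasma membrane. Its exon of 139 nt, with no other annotated exon in either gap, had a level of 0.99 in LM2 (0.97 to 1.00) and 0.74 in the parental line (0.69 to 0.80). Exclusion reads numbered 2 in LM2 and 0 in the parental line, against 2032 and 1532 inclusion reads, so the read-based levels were 0.998 and 1. Inclusion reads per 100 shared reads were 267 and 135. ASAP1, a GTPase-activating protein for Arf at podosomes and focal contacts, had levels of 0.64 and 0.40 at its exon of 171 nt and read-based levels of 0.915 and 0.953, in the opposite order. CDC42SE2, a small effector of Cdc42, had 0.94 and 0.64 for an exon in the 5′ UTR with 1 exclusion read in each library.

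PTK2 encodes focal adhesion kinase, which relays signals from integrins. Its 5′ UTR exon of 89 nt (chromosome 8, 140925661 to 140925749) had levels of 0.61 and 0.33, from 103 inclusion and 5 exclusion reads in LM2 and 48 and 2 in the parental line, and its coding exon of 63 nt had 0.94 and 0.67 from 183 and 1 against 83 and 1. Informative reads of these exons were 2.53 and 2.57 times as many in LM2 after scaling. A longer form of the 5′ UTR exon, of 188 nt, has the same upstream gap and the same exclusion reads. It had levels of 0.12 and 0.11 from 41 and 31 inclusion reads and was not called. PPP2R5C and PPP2R5E are B56 regulatory subunits of protein phosphatase 2A. The exon of PPP2R5C (166 nt) had levels of 0.48 and 0.19 with 0 and 1 exclusion reads, and that of PPP2R5E (197 nt) 0.76 and 0.52 with 8 and 9, which gave read-based levels of 0.938 and 0.93.

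RSRC1, an arginine/serine-rich splicing protein, had levels of 0.82 and 0.51 with 1 exclusion read in each library beside 553 and 484 inclusion reads. STAU1, which binds double-stranded RNA and acts in mRNA transport and decay, had 0.71 and 0.41 for a 5′ UTR exon of 75 nt with 3 and 6 exclusion reads. ACSL3, an acyl-CoA synthetase that activates long-chain fatty acids, had 0.80 and 0.56 for a 5′ UTR exon with 4 and 0. CKLF, a chemokine-like factor, had 0.79 and 0.36 with no exclusion read; its exon also lies in the readthrough gene CKLF-CMTM1. TBCE, a tubulin folding cofactor, had 0.42 and 0.19 for an exon of 403 nt, again with no exclusion read, and a gene on the opposite strand covers the exon. PDGFC, a growth factor of the PDGF family, had 0.43 and 0.20 from 31 inclusion and 8 exclusion reads against 23 and 9.

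Only 3 exons were called lower in LM2. PARD3 is a scaffold of the Par complex, which sets cell polarity and tight junctions. Its coding exon of 111 nt, exon 21 of 25, had a level of 0.39 in LM2 (0.29 to 0.48) and 0.63 in the parental line (0.54 to 0.72). Inclusion and exclusion reads numbered 59 and 10 in LM2 against 173 and 10, an odds ratio of 0.343 (0.121 to 0.968; Fisher's exact p of 0.033, adjusted 0.87). ACSL4, the acyl-CoA synthetase that prefers arachidonic acid, had 0.49 and 0.85 for a 5′ UTR exon of 53 nt, from 27 and 5 reads against 54 and 1. ZNF83, a zinc finger protein, had 0.35 and 0.73 with no exclusion read in either library. The 5′ UTR exons of ACSL3 and ACSL4 thus differed in opposite directions by the deposited level, while the reads followed the call in ACSL4 only.

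**Figure D4:**
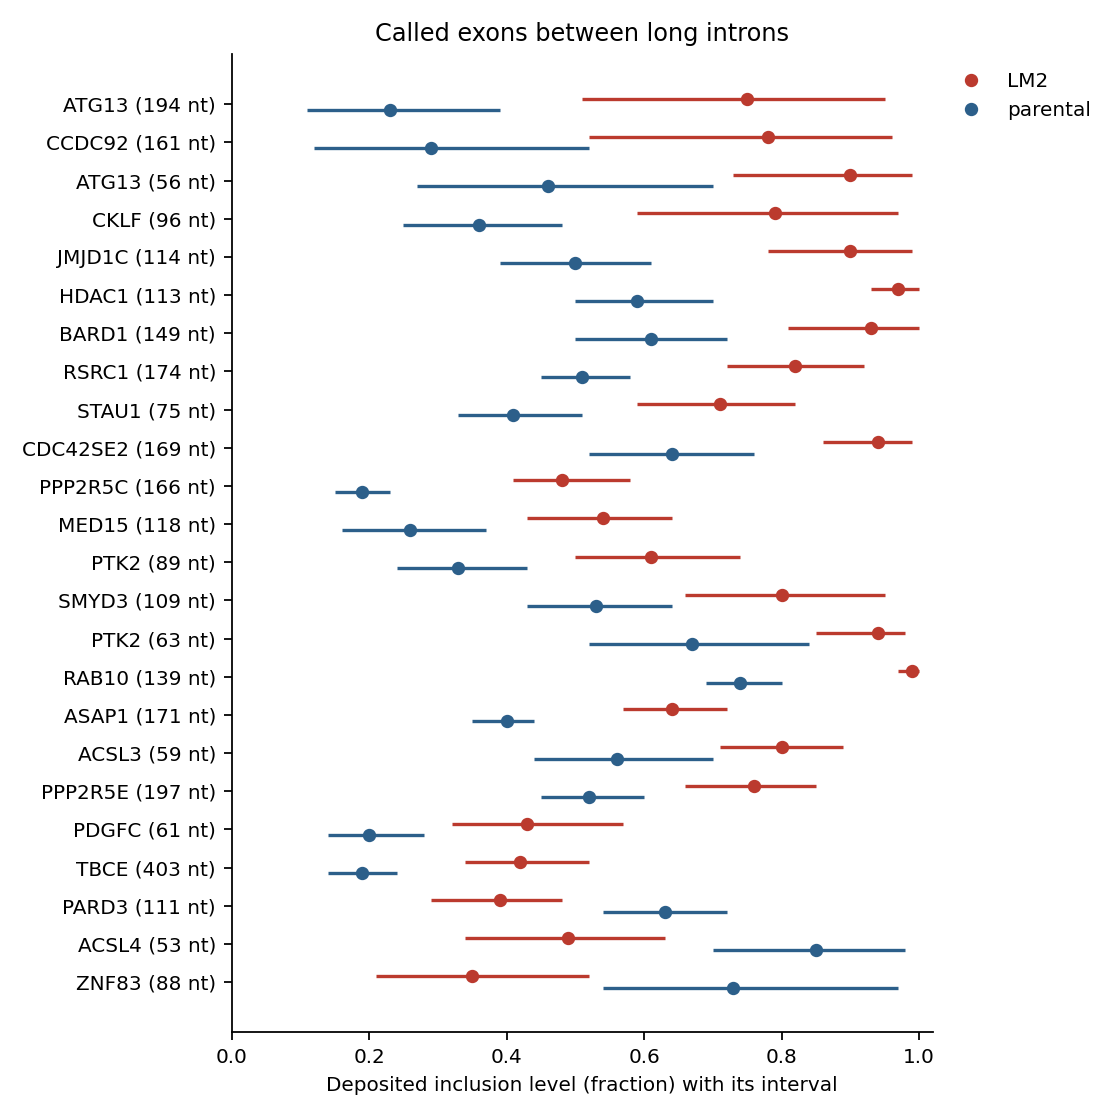
Deposited inclusion level (fraction, points) with the authors' interval (bars) in LM2 and the parental line for the called exons named in the text, with the exon length beside the gene. The intervals of the lines do not meet, except that those of CCDC92 touch at 0.52; the level of MED15 is 0.54 in LM2 and 0.26 in the parental line.

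BTBD10, which was not called by the deposited rule, gave the smallest read-test p outside a pair of near-identical noncoding genes. It was picked after its values were seen. BTBD10 is a BTB-domain protein, and its coding exon of 158 nt (chromosome 11, 13445024 to 13445181) had a level of 0.50 in LM2 (0.44 to 0.55) and 0.66 in the parental line (0.60 to 0.72). Inclusion and exclusion reads numbered 261 and 96 in LM2 against 321 and 49, which gave read-based levels of 0.576 and 0.766. The odds ratio was 0.416 (0.277 to 0.617), with a Fisher's exact p of 4.7e-06 and an adjusted p of 0.0018 for these 2 libraries. In the authors' deposited table the difference in level, -0.16, was smaller than the 0.2 the call requires.

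The other 3 exons that passed the read test with no minimum difference belong to CYTOR and MIR4435-2HG, a pair of long noncoding RNA genes that are copies of each other on chromosome 2. CYTOR is known to affect cytoskeleton and proliferation in cancer cells. Their exons of 201 nt (chr2:87480223-87480423, plus strand, and chr2:111469787-111469987, minus strand) are shown with the 3 differing bases in capitals.
CYTOR: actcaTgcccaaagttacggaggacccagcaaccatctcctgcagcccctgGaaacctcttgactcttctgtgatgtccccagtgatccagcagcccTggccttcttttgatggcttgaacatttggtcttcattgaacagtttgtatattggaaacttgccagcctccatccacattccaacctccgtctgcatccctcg
MIR4435-2HG: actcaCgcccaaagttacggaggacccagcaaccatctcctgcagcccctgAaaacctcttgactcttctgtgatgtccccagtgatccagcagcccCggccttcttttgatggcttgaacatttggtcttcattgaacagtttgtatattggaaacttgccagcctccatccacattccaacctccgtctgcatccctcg
The copies are 98.5% identical here, their exons of 138 and 146 nt are identical throughout, and those of 155 and 385 nt differ at 3 and 4 bases. A read cannot be assigned between such copies unless it covers a differing base, so all values of these exons are uncertain. The 201 nt exon had levels of 0.27 and 0.19 in CYTOR and 0.18 and 0.12 in MIR4435-2HG, LM2 first, with read-based levels of 0.292 and 0.216, and of 0.208 and 0.145. The adjusted p was 0.00016 and 0.01. The identical exon of 138 nt, however, had levels of 0.26 and 0.20 in CYTOR but 0.98 and 0.97 in MIR4435-2HG, where the flanking exons of the event differ and exclusion reads were 3 and 4 in place of 804 and 837.

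Alternative coding exons between long introns had a median difference of 0 between the lines. Among the 954 coding members 117 had at least 10 exclusion reads over both libraries and a read-based level from 0.1 to 0.9 in each line. This leaves out exons that were near full inclusion or full skipping in either line. In length, 49.6% of the 117 were a multiple of 3 nt, against 52.6% of the 1609 such other exons and 43.4% of all coding members. The deposited level differed by less than 0.1 in 94 of the 117 (80.3%, against 73.4% of the 1609). The read-based level did so in 79 (67.5% against 67.1%), and 3 were called (2.56%, against 1.99% of the 1609). A Fisher's exact p under 0.05 before adjustment was found for 18 (15.4%, against 13.9% of the 1609). Several with many reads were picked after their values were seen, some near-equal and some not. AGAP1, a GTPase-activating protein for Arf on endosomes, had levels of 0.28 and 0.30 from 81 inclusion and 105 exclusion reads in LM2 and 98 and 109 in the parental line. ANO6, a calcium-activated scramblase that exposes phosphatidylserine, had 0.20 and 0.19. ZMYND11, a reader of modified histone H3, had 0.62 and 0.64 for an exon of 162 nt, and KLHL5, a kelch protein, 0.47 and 0.46 for one of 477 nt. DCAF6, a substrate receptor of a ubiquitin ligase, had 0.16 in both. FIP1L1, an mRNA 3′ end processing factor, had 0.61 and 0.72 (odds ratio 0.59, 0.384 to 0.908; Fisher's exact p of 0.013, adjusted 0.59), and PHF3, a PHD finger protein, 0.41 and 0.45 (odds ratio 0.686, 0.476 to 0.989; Fisher's exact p of 0.038, adjusted 0.93). For AGAP1 the interval of the odds ratio ran from 0.565 to 1.30, which leaves room for a moderate difference.

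At the ends of the range, the reads were plain. YWHAE (14-3-3 epsilon), the member with most reads, had 13226 inclusion reads in LM2, 11149 in the parental line and no exclusion read, and a level of 1.00 in both. CHMP3, a subunit of the ESCRT-III membrane-cutting complex, also stood at 1.00 in both with 2 and 0 exclusion reads. The exon of AKAP2, an anchor for protein kinase A, had 0.94 and 0.92, and UBE2V1, a ubiquitin-conjugating enzyme variant, had 0.98 in both at its exon of 149 nt. These last 3 exons lie in readthrough genes as well. By contrast, NDUFS4, a subunit of respiratory complex I, had an annotated exon of 124 nt with 1 inclusion and 760 exclusion reads in LM2 and 0 and 850 in the parental line, where 0 allows a share of up to 0.353% of reads. SRPK1, a kinase of SR splicing factors, had a level of 0.03 in both lines at an exon of 96 nt, and EIF3H, a translation initiation factor, listed 0.00 in both at an exon of 51 nt.

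Of the 5 exons with the longest introns, 4 were mostly included. MECOM, a zinc finger transcription factor, has an exon of 338 nt between gaps of 281811 and 237354 nt, the greatest sum of all members. Its level was 0.94 (0.83 to 0.99) in LM2 and 0.76 (0.60 to 0.96) in the parental line, with 125 and 132 inclusion reads and no exclusion read. SUPT3H, a subunit of the SAGA coactivator, had 0.96 and 0.95 between gaps of 259194 and 85289 nt. UBE2E2, a ubiquitin-conjugating enzyme, had 0.87 and 0.61 with a gap of 282295 nt upstream, and CAMK1D, a calcium/calmodulin-dependent kinase, 0.82 and 0.88 from 13 and 26 inclusion reads. The exception was an exon of CMSS1 in the 5′ UTR, under a gene on the opposite strand, with 0 inclusion reads beside 585 and 342 exclusion reads, which allows a share of up to 0.513% and 0.877% of reads. Just inside the limit of 10000 nt lay exons of SNTB2 (levels of 0.89 and 0.90), ATXN3 (0.95 and 0.97) and SLC16A7 (0.03 and 0.07), and just outside it exons of IL4R (0.88 and 0.87), PLPP4 (0.78 and 0.92) and SCAI (0.38 and 0.37).

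What set the members apart beyond their introns was mainly position in the transcript. The second exon of its transcript made up 38.0% of the 1328 members matched to an annotated exon, against 25.7% of 18309 matched other exons, and the third 22.1% against 18.3%. Exons in the 5′ UTR were 207 (15.01% against 9.21%), coding exons 954 (69.2% against 74.7%), noncoding exons 158 (11.5% against 10.6%) and 3′ UTR exons 9, and 51 exons matched no annotated exon. Median gene length was 159962 nt against 44443 nt, and median GC content 45.2% against 48.8%. Exon length (median 119 against 117 nt) and the share ending in G (80.8% against 79.8%) or in CAG or AAG (43.3% against 41.6%) differed little. Informative reads had a median of 54 in LM2 and 66 in the parental line, against 68 and 87 for the others, so the members were measured with somewhat less depth.

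The 5′ UTR exons had a median level of 0.24 in LM2 and 0.23 in the parental line, against 0.16 and 0.15 for other 5′ UTR exons. The coding exons had 0.88 and 0.86, against 0.87 in both lines for other coding exons. Calls were 6 higher and 1 lower among the 5′ UTR exons (3.38%, against 0.742% of 1752 other 5′ UTR exons), 15 and 2 among the coding exons (1.78% against 1.04%), and 0 of 158 among the noncoding ones (against 0.796% of 2010). The difference in calls between classes was not tested. The 5′ UTR calls are those of ATG13 (56 nt), CCDC92, STAU1, CDC42SE2, PTK2 (89 nt), ACSL3 and ACSL4.

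The 1379 exons carry 923 gene labels, 632 of them with 1 member and 101 with 3 or more. MIR4435-2HG had 10, PTK2 8, and CYTOR, FTO and TBC1D5 7 each. In PTK2 the members' levels ran from 0.12 to 0.99 in LM2 and from 0.11 to 0.99 in the parental line, and in CYTOR only from 0.01 to 0.27 and from 0 to 0.20. The alternative coding exon of PTK2, of 167 nt, had 0.76 and 0.78 from 968 inclusion and 122 exclusion reads against 544 and 45. In FTO, the RNA demethylase of N6-methyladenosine, annotated coding exons of 78 and 144 nt had 0.99 and 0.88 in both lines and one of 125 nt had 0.98 and 0.84. A further annotated coding exon, of 59 nt, had 0.03 and 0.02, and the exons of 119, 107 and 63 nt had at most 0.05. In TBC1D5, a GTPase-activating protein of retromer traffic, coding exons of 70 and 107 nt had 0.95 to 0.97 and a 5′ UTR exon of 124 nt 0.23 and 0.30. Members of a gene that share a skipping junction, as 300 of the 1379 do, share its exclusion reads.

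The gene lists by function held at most 2 calls each. All members together had a median difference of 0, with 22 called higher and 3 lower (1.81%), against 1.04% called over all 20399 exons. The lists are too small to be set apart by so few calls, or by none, and no list was tested. Adhesion and focal contact genes had 21 members with 2 called higher, both in PTK2, and a median difference of 0. Their 108 other exons had 4 called higher and 2 lower. In that list PTPRK, a receptor tyrosine phosphatase at cell contacts, had 0.21 and 0.34 (19 inclusion and 30 exclusion reads against 39 and 17; adjusted Fisher's exact p of 0.20), and PTPRG, of the same family, 0.23 and 0.29. Cytoskeleton and motor genes had 19 members and no call, and their 169 other exons had 2 called higher and 2 lower. DIAPH3, a formin, had 0.90 and 0.80, MAPRE2, a microtubule end-binding protein, 0.93 and 0.84, and EPB41, which ties spectrin to actin, 0.87 and 0.96. Membrane traffic had 29 members with 1 called higher, ASAP1, beside TBC1D22A (0.59 and 0.80) and DENND1A (0.86 and 0.95). The 149 other exons of that list had 2 called higher and 4 lower.

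Chromatin and transcription factor genes had 50 members with 1 called higher, JMJD1C, and their 194 other exons had 7 called higher and 1 lower. HDAC1, SMYD3, BARD1 and MED15 are not on that list. MEF2A, a transcription factor of muscle and stress responses, had 0.43 and 0.67 for a 5′ UTR exon of 82 nt (32 inclusion and 4 exclusion reads against 81 and 1) without a call, and ATRX, a chromatin remodeler, 0.91 and 0.76. Kinase and phosphatase genes had 36 members with the 2 PP2A subunits called higher and a median difference of 0.01. Their 186 other exons had 3 called higher and 0 lower. RPS6KC1 had 0.80 and 0.68. RNA-binding and splicing factor genes had 28 members with RSRC1 and STAU1 called higher and a median difference of -0.01, beside RBM6 (0.90 and 0.72). The 186 other exons of that list had 2 called higher and 0 lower.

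Ubiquitin and proteolysis genes had 24 members and no call, and their 118 other exons had 1 called higher and 0 lower. BTRC, the F-box protein that marks beta-catenin and the NF-kappaB inhibitor for degradation, had a level of 0.49 in LM2 (0.38 to 0.60) and 0.67 in the parental line (0.54 to 0.80) at its exon of 108 nt, from 47 inclusion and 28 exclusion reads against 51 and 12. Its odds ratio was 0.398 (0.164 to 0.917; Fisher's exact p of 0.024, adjusted 0.75). USP25, a deubiquitinase, had 0.87 and 0.94. Small GTPase regulators had 20 members, no call and a median difference of 0.005. Their 77 other exons had 0 called higher and 1 lower. ARHGAP24 had 0.91 and 0.72 and CHN1 0.84 and 0.73, while GPHN, which that list also holds although it is a receptor scaffold, had 0.27 and 0.37. Markers of other cell types had no member. Of the epithelial markers, KRT8 had 1933 and 1643 inclusion reads at its best event and CDH1 7 and 7.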

How the data were processed

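Total RNA of 4 samples, 2 of each line, was sequenced, and the reads were aligned to hg38 with STAR 2.7, per the submitters' processing notes. The authors deposited MISO skipped-exon tables, 1 for each line, and a comparison of both, per the file headers. The deposited inclusion level is a fraction with an interval, the deposited difference is a score (LM2 minus parental level) and the deposited Bayes factor is a ratio, capped at 1e+12. The deposited read counts fall into 4 classes: inclusion, exclusion, both (shared reads) and neither. The MISO version, its annotation and the pooling of a line's samples were not given in the sources used here. In all, 39981 LM2 and 43626 parental events held 5656778 and 6631215 inclusion and exclusion reads and had at least 20 reads of any class.

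Exons were selected by intron length and reads, then 1 event was kept per exon, with Python 3.11.15, pandas 2.3.3 and scipy 1.17.1. Classes, ranks and sequences came from GENCODE release 29. No genome was used, so splice sites were read on the exon side only and no splice-site score was made. Fisher's exact tests were two-sided and were tested on simulated data. Odds ratios have exact 95% intervals, and the scaled read ratios have exact binomial ones; intervals and limits for 0 (3 counts) cover counting error only.

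The exons named were every called exon, except 1 that is counted but not reported here; the 5 with most reads, the 5 with the longest introns and the 5 best-read with levels under 0.5; up to 3 with at least 20 reads per library and the largest difference from each of 9 gene lists; 3 on either side of the intron limit; and those the read test called, with 1 per gene in each group. Those said to be picked after their values were seen, the members of genes with many exons, and the CYTOR and MIR4435-2HG exons were added. The members, gene lists and tests were chosen with earlier results of these data known. Alternatives varied the intron and read limits, the call, the event choice and the way the level was computed.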

Additional observations from a re-analysis of the deposited data

Results flagged for a closer look

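An exon of PLCB4, a phospholipase C that acts downstream of G proteins, was listed for LM2 and not for the parental line, and therefore entered no comparison. It is a 5′ UTR exon of 56 nt on the plus strand of chromosome 20 (9096287 to 9096342, hg38) between gaps of 27383 and 121047 nt. LM2 had 25 informative reads, 13 for inclusion and 12 for exclusion, and a level of 0.38 (0.22 to 0.56). A further 20 reads were shared, and 34741 fell into the class of neither. The tables list only events with at least 20 reads of any class, so the parental value is not known to be 0. Why the event is not listed for the parental line was not tested. It was the only event between long introns with 20 informative reads in 1 table alone.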

How the results depend on the processing

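No paired analysis was possible because the deposited tables name no replicate, and for the same reason no sample could be left out. The share of members called was 1.81% as reported. It moved to 0.943% with a difference of at least 0.3 and to 1.05% with no other annotated exon in the gaps, an alternative chosen after seeing the data; under the other alternatives it stayed within 1.5 times. The median level of 0.78 in LM2 and 0.73 in the parental line became 0.957 and 0.949 from reads alone, and 0.928 and 0.916 per exon and junction position (assuming reads of 50 nt). The read test called 0 exons, 1 with a difference of at least 0.1 and 4 with no minimum. The median log2 ratio of event reads, -0.09, became 0.0177 when scaled to the median of all exons. With introns of at least 20000 nt, 64.5% of members were coding and 17.9% in the 5′ UTR.

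Of the 25 called differences, 5 were still at least 0.2 in the same direction from reads alone, 16 were smaller than 0.2 or 0 (HDAC1 from 0.38 to 0.0221, RSRC1 from 0.31 to 0.000512) and 4 changed sign; per position these were 6, 15 and 4. The sign changed, from reads alone and per position, for PTK2 (89 nt; -0.0116 and -0.0152), RAB10 (-0.00196 and -0.00376), ACSL3 (-0.0435 and -0.0477) and ASAP1 (-0.0379 and -0.0727). The cause was not tested. These forms of the level leave out the shared reads.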
